A study of Mus musculus with 12 samples.

Results

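The C/EBP transcription factors examined here were Cebpa, Cebpb, Cebpd and Cebpg, found by gene name as 4 of the 55487 genes in a table of transcript levels from 3T3-L1 cells, each listed there under its name. 3T3-L1 is a mouse fibroblast line that turns into fat cells when it is fed an induction medium (MDI) of IBMX, dexamethasone and insulin. The cells had been infected with lentivirus that expressed a hairpin, either a control called shScram or one directed at Fto, the gene of an RNA demethylase, called shFto, and were selected with puromycin. Each line was sequenced as preadipocytes (Pre), at mitotic clonal expansion (MCE), when arrested cells re-enter the cell cycle after induction, and after differentiation (Diff), with 2 libraries of fragmented total RNA for each of the 6 combinations. The sources used here do not say which Fto hairpin the sequenced cells carried, whether a line was a clone or a pool, or whether the replicates were separate cultures, so the p-values measure only the spread between these libraries. For replicate 1 of shScram at Diff, the treatment entry names the knockdown while the title names shScram, and the title was followed.

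C/EBP proteins bind DNA as dimers through a basic region and a leucine zipper, and any member can pair with another. In the textbook account of 3T3-L1 differentiation, cyclic AMP (raised by IBMX) and glucocorticoid (dexamethasone) induce Cebpb and Cebpd first. C/EBPβ gains DNA binding as the cells enter clonal expansion, and it then turns on Cebpa and Pparg, which maintain each other and the genes of the fat cell. C/EBPγ, the product of Cebpg, lacks an activation domain of its own and acts as a dimer partner, among others of ATF4 on genes of the amino acid response. Cebpb mRNA gives a long activating and a short inhibitory protein from different start codons, which a transcript level does not separate.

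All coordinates are of GRCm38. Cebpa lies at chr7:35119293-35121928 (plus strand) and Cebpg at chr7:35046422-35056573 (minus strand) on the same chromosome, Cebpb at chr2:167688915-167690418 (plus) and Cebpd at chr16:15887286-15891031 (plus). Cebpb is annotated as 1 exon of 1504 bases. Part of each member is shared with another gene, which matters because the sources do not say whether strand was used in counting. Of the 1504 exon bases of Cebpb, 312 are also exon of Tmem189 on the opposite strand, and 562 of the 3746 exon bases of Cebpd are exon of Spidr on the opposite strand. Cebpa shares 51 of its 2636 exon bases with the antisense RNA Gm45091. Cebpg shares 73 of its 5621 exon bases with Gm44836 on its own strand and 4 with the antisense RNA Gm45095, while Gm45094 overlaps only an intron.

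The sequences before the transcription start are shown as a description, and a link between them and the degree of induction was not tested. RefSeq (GRCm38.p6) gave an entry for 3 of the 4 members, and Cebpd had none. The 250 bases before the start are printed 5′ to 3′ on the strand of the gene, at chr7:35119043-35119292 for Cebpa, chr2:167688665-167688914 for Cebpb and chr7:35056567-35056816 for Cebpg. For Cebpg the start in RefSeq lies inside the gene as placed above, so its window overlaps chr7:35046422-35056573. Capitals mark matches to a TATA box in Cebpa, to the CREB core TGACG in Cebpb and to a CCAAT box in Cebpg.

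Cebpa: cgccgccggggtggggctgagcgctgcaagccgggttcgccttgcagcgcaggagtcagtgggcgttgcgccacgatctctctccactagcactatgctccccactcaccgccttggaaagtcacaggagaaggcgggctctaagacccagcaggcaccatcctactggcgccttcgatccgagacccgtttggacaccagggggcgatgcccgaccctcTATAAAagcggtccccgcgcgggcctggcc

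Cebpb: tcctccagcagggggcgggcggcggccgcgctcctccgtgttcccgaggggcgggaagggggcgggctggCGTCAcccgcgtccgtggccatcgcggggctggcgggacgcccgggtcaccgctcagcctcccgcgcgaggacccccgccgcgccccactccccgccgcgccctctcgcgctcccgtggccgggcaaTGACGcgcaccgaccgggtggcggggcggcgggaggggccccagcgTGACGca

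Cebpg: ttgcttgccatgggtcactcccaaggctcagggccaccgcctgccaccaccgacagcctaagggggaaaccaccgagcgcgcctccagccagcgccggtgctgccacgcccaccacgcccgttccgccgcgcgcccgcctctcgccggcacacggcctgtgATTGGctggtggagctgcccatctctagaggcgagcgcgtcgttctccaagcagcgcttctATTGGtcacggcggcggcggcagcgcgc

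The search covered 4 motifs on both strands. TGACG, the core bound by CREB, the factor that answers to cyclic AMP, occurred 3 times before Cebpb, 180 to 176 bases before the start (as CGTCA, on the reverse strand), 53 to 49 bases before it and 7 to 3 bases before it. At least 1 TGACG stood in 17.8% of the 32851 promoters of the same length in the table. TATAAA stood 30 to 25 bases before the start of Cebpa and in 12.4% of promoters. CCAAT stood before Cebpg only on the reverse strand, as ATTGG, 89 to 85 and 28 to 24 bases before the start, and in 33.8% of promoters. The C/EBP core palindrome TTGCNNAA, found in 9.56% of promoters, had no match in the 3 windows. These matches describe the letters and are not binding sites measured in these cells. GC made up 66.4%, 81.6% and 70.8% of the windows of Cebpa, Cebpb and Cebpg, and the window of Cebpb was richer in GC than 99.3% of all promoters.

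Expression was given as TPM, a level corrected for transcript length and scaled to the same total in every library, so levels can be compared between genes but the depth of sequencing behind them is unknown. Between 20853 and 24018 genes were above 0 in a library. Fto stood at 52.7 to 73.5 TPM in the shScram libraries and at 5.51 to 7.47 TPM in the shFto libraries, so the shFto mean was 9.96%, 10.8% and 10.1% of the shScram mean at Pre, MCE and Diff. The library whose treatment entry named the knockdown, shScram Diff replicate 1, held 73.5 TPM of Fto, the level of a shScram library. Differences were tested with limma on log2(TPM + 1) over the 15968 genes that reached 1 TPM in 2 or more libraries, and a gene was called at an adjusted p under 0.05. This scale understates the change of Cebpa, whose TPM is low. In bulk RNA, fewer cells of a type and less RNA per cell cannot be told apart.

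The libraries of shScram Pre stood apart. Across genes, which are not independent replicates, they correlated at r = 0.939, against 0.990 to 0.993 in the other groups, and the difference between them was related to transcript GC content (Spearman rho = -0.711 over 15928 genes, against -0.213 to 0.371 elsewhere). The members sit at different points of that scale. Pooled over the annotated transcripts of a gene, Cebpb is 67.2% GC, above 99.7% of the genes tested. Cebpa is at 61.2% (above 97.5%), Cebpd at 51.1% (above 56.6%) and Cebpg at 45.2% (above 24.8%). In shScram Pre replicate 1, Cebpa, Cebpb and Cebpd were all at their lowest of the 12 libraries. Since all libraries share an estimate of the spread, the disagreement between these 2 libraries widened the errors of those genes in every comparison. Leaving out either of them narrowed the errors alike, and in comparisons that do not involve shScram Pre the same members were called without replicate 1 and without replicate 2. The residual SD on the log2 scale was 0.71 for Cebpb, 0.46 for Cebpa and 0.43 for Cebpd, against a median of 0.22 over all genes, and 0.083 for Cebpg. The tests are therefore given with all 12 libraries, followed by values without shScram Pre replicate 1 and after a correction for GC content. Without replicate 1, shScram Pre is a single library, and its spread is taken from the other groups. For any comparison or interaction that involves shScram Pre, an adjusted p from that fit measures no spread of that group.

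Cebpb was the most abundant C/EBP transcript in 11 of the 12 libraries and was higher in shFto than in shScram cells at every stage, with no overlap between the lines. In shScram cells it stood at 35.9 and 199.6 TPM at Pre, 676 and 701 TPM at MCE, and 388 and 323 TPM at Diff. In shFto cells it stood at 346 and 367 TPM at Pre, 1211 and 1273 TPM at MCE, and 574 and 623 TPM at Diff. Both lines were thus highest at MCE, and the preadipocytes of shFto (356.9 ± 14.8 TPM) were close to differentiated shScram cells (355.6 ± 46.2 TPM, SD, n = 2 each). After GC correction the former stood at 284 and 288 TPM and the latter at 404 and 373 TPM. The shFto mean was 3.03 times the shScram mean at Pre (1.79 times without shScram Pre replicate 1), 1.80 times at MCE and 1.68 times at Diff.

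Cebpd, the other early factor, was higher in shFto preadipocytes and lay at close levels in both lines later. It stood at 5.97 and 18.5 TPM in shScram Pre and at 37.0 and 40.3 TPM in shFto Pre. At MCE the shScram libraries held 165.5 and 161.9 TPM and the shFto libraries 145.6 and 142.2 TPM, and at Diff the shScram libraries held 159.3 and 152.7 TPM and the shFto libraries 169.1 and 184.4 TPM. The lines did not overlap at any stage, with shFto the lower line at MCE. The shFto mean was 3.17 times that of shScram at Pre (2.09 times without shScram Pre replicate 1), 0.879 times at MCE and 1.13 times at Diff.

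Cebpa, the later factor that sustains the fat cell state, was low throughout. It stood at 0.327 and 2.82 TPM in shScram Pre, 7.13 and 6.88 TPM at MCE, and 5.01 and 3.77 TPM at Diff. In shFto cells it stood at 2.00 and 2.01 TPM at Pre, 3.91 and 3.32 TPM at MCE, and 5.77 and 5.19 TPM at Diff. Its level was thus highest at MCE in the shScram line and at Diff in the shFto line. The shFto mean was 0.516 times the shScram mean at MCE and 1.25 times at Diff, each without overlap, and the lines overlapped at Pre. After GC correction they overlapped at Diff, at 4.73 and 4.07 TPM for shScram against 4.55 and 3.88 TPM for shFto.

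Cebpg, the dimer partner, varied least. It stood at 48.0 and 42.4 TPM in shScram Pre, 44.1 and 39.3 TPM at MCE, and 45.1 and 44.9 TPM at Diff. In shFto cells it stood at 40.1 and 44.9 TPM at Pre, 29.8 and 30.2 TPM at MCE, and 43.7 and 43.4 TPM at Diff. The shFto libraries at MCE were the lowest of all, at 0.720 times the shScram mean of that stage, and every other group lay between 39.3 and 48.0 TPM.

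**Figure D1:**
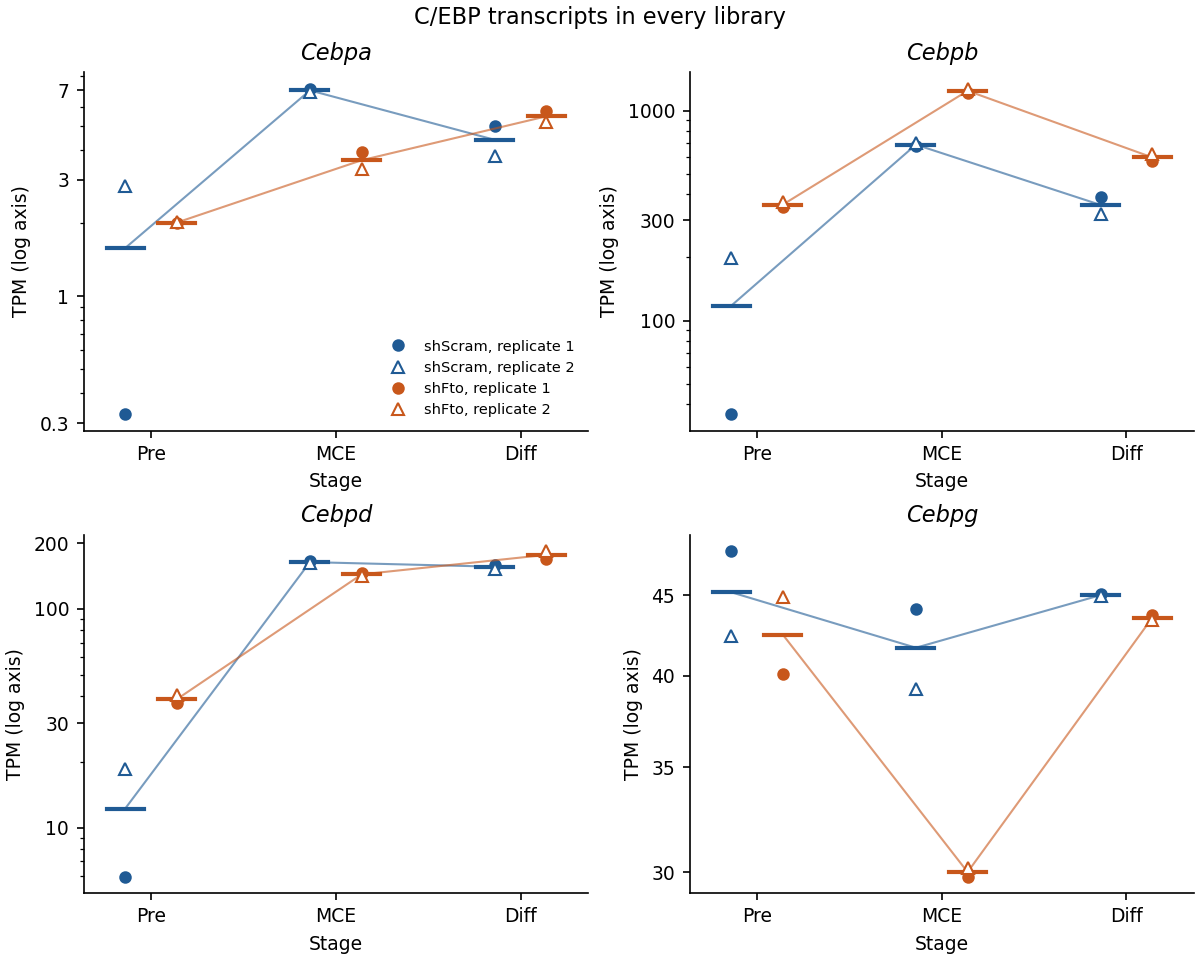
TPM (log axis, with its own range for each gene) of the 4 C/EBP transcripts at the 3 stages, with each library as a point, the group mean as a bar, and lines joining the means of shScram (blue) and shFto (orange). Cebpb is higher in shFto at every stage, Cebpd differs mainly at Pre, Cebpa is highest at MCE in shScram and at Diff in shFto, and Cebpg is at 29.8 and 30.2 TPM in shFto at MCE.

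The order of the groups differed from gene to gene. For Cebpb it ran from shFto MCE through shScram MCE, shFto Diff, shFto Pre and shScram Diff to shScram Pre. Of these 5 steps between neighbours, the last passed the test with all libraries (adjusted p = 0.0322 by limma). Without shScram Pre replicate 1, the steps from shFto MCE to shScram MCE (adjusted p = 4.7e-05) and from shFto Diff to shFto Pre (adjusted p = 0.000113) passed as well. For Cebpd the 4 upper groups, from 176.8 TPM in shFto Diff to 143.9 TPM in shFto MCE, did not differ beyond their spread between neighbours with or without that library. The steps down to shFto Pre (adjusted p = 0.00501) and from there to shScram Pre (adjusted p = 0.0109) did. For Cebpg the step from shScram MCE to shFto MCE, the last in its order, passed (adjusted p = 0.028). None of the 5 steps of Cebpa passed with all 12 libraries, and the step from shFto MCE to shFto Pre did without shScram Pre replicate 1 (adjusted p = 0.00824). In that case shScram Pre, at 2.82 TPM, also ranked above shFto Pre for Cebpa.

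The composition of the C/EBP transcript pool moved with stage and line. The summed TPM of the 4 genes was 90.2 and 263 in shScram Pre, 893 and 909 in shScram MCE, and 598 and 524 in shScram Diff. In shFto cells it was 425 and 455 at Pre, 1390 and 1449 at MCE, and 793 and 856 at Diff. Cebpb made up 75.7% and 77.1% of this sum in shScram MCE and 87.1% and 87.9% in shFto MCE. At Diff its share was 65.0% and 61.6% in shScram and 72.4% and 72.8% in shFto. Cebpd held 26.7% and 29.1% of the pool in shScram Diff, its largest share. Cebpa never exceeded 1.07%. In shScram Pre replicate 1, Cebpg led with 53.2% and Cebpb held 39.8%, while in replicate 2 Cebpb held 75.8%.

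**Figure D2:**
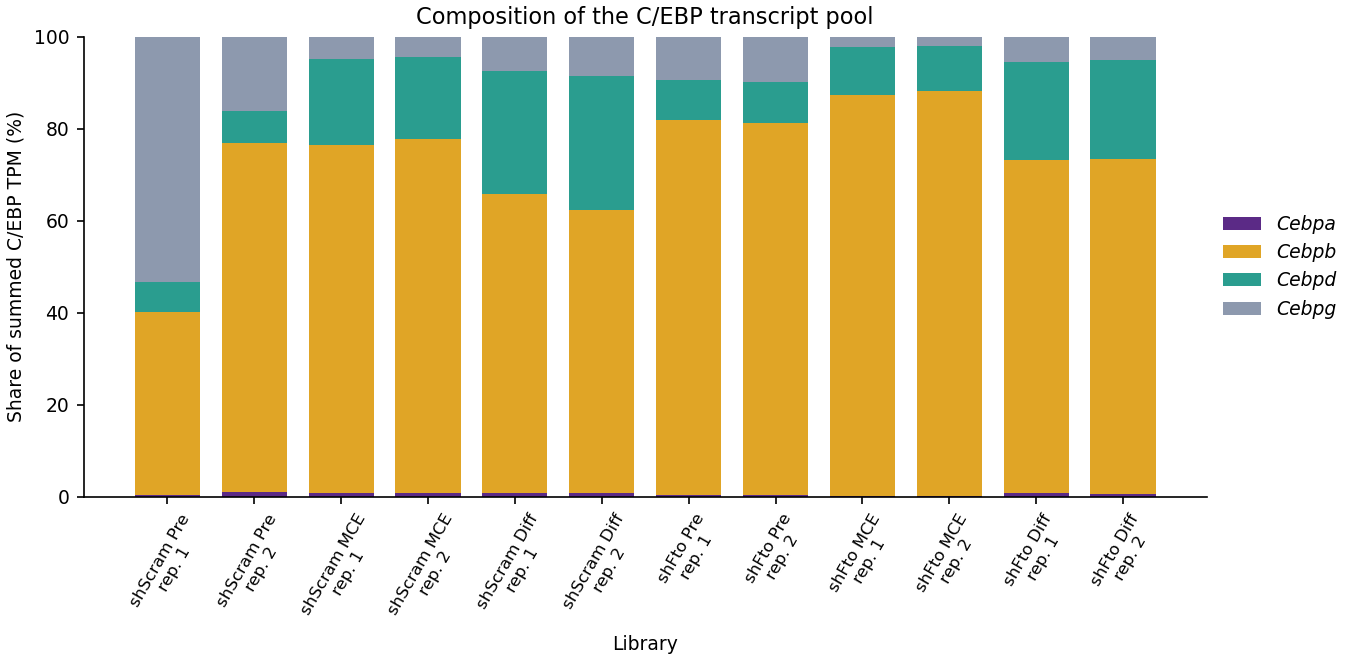
Share of the summed TPM of the 4 C/EBP genes (%) held by each gene, as a stacked bar for each of the 12 libraries. Cebpb holds 61.6% to 87.9% in all libraries except shScram Pre replicate 1, and its share is larger in shFto than in shScram at MCE and at Diff.

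The ratio of the early to the late factor was higher in shFto. At Pre the TPM of Cebpb was 109.8 and 70.7 times that of Cebpa in shScram and 173.1 and 182.8 times in shFto. There were 94.9 and 101.8 Cebpb transcripts for each Cebpa transcript in shScram MCE, and 310 and 383 in shFto MCE. At Diff the ratio was 77.6 and 85.7 in shScram and 99.5 and 120.0 in shFto, so the lines did not overlap at any stage. Corrected for GC content, Cebpb held 76.7% and 76.5% of the pool in shScram MCE and 85.17% and 85.98% in shFto MCE. At Diff the corrected shares of Cebpb were 66.7% and 65.7% in shScram and 67.5% and 66.8% in shFto, so the gap between the lines narrowed.

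At Pre, 2 of the 4 members were called between the lines, both higher in shFto, where 28.2% of all genes tested were called in either direction and 15.9% higher. Cebpb differed by 2.06 on the log2 scale (standard error 0.59, limma adjusted p = 0.034) and Cebpd by 1.77 (standard error 0.37, adjusted p = 0.0109). Without shScram Pre replicate 1 both differences shrank and both calls stood, at 0.83 for Cebpb (adjusted p = 0.000484) and 1.03 for Cebpd (adjusted p = 3.88e-05), in a fit that called 29% of all genes. They were larger without replicate 2, at 3.28 and 2.51. After GC correction, with 32% of all genes called, the values were 1.05 (adjusted p = 0.0154) and 1.62 (adjusted p = 0.00358). The call of Cebpb was lost without any 1 library outside shScram Pre, and that of Cebpd without shFto Pre replicate 1 or 2. Cebpa was not called with all libraries (0.42, adjusted p = 0.434). Its sign turned when shScram Pre replicate 1 was left out (-0.35) and after GC correction (-0.54, limma adjusted p = 0.0225). Without shScram Pre replicate 2 its value was 1.18, so its direction at Pre was set by the choice of library. Cebpg gave -0.09 (95% interval -0.36 to 0.18).

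At MCE, 1 of the 4 members was called, Cebpg, which was lower in shFto by 0.46 (log2 difference -0.46, standard error 0.12, adjusted p = 0.028), where 17.8% of all genes were called and 7.26% lower. This call was lost when any library of MCE or Diff was left out (adjusted p = 0.0527 to 0.178) and held without any of the 4 Pre libraries. The higher Cebpb of shFto gave 0.85 (standard error 0.59, adjusted p = 0.396) and the lower Cebpa -0.80 (standard error 0.40, adjusted p = 0.221). The same differences without shScram Pre replicate 1 carried adjusted p = 4.7e-05 for Cebpb and 0.00257 for Cebpa, in a fit that called 41% of all genes. GC correction, under which 29.6% of all genes were called, brought Cebpb down to 0.55 (adjusted p = 0.152) and took Cebpa to -1.01 (adjusted p = 0.00082). Cebpd gave -0.19 (95% interval -1.02 to 0.65), with adjusted p = 0.0589 without shScram Pre replicate 1.

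At Diff, none of the 4 members was called by limma with all libraries, where 21.2% of all genes were called. No member had an unadjusted p under 0.05, beside 5355 of the 15968 genes tested. Cebpb gave 0.75 (adjusted p = 0.42), Cebpa 0.28 (95% interval -0.62 to 1.17), Cebpd 0.18 (-0.65 to 1.01) and Cebpg -0.05 (-0.31 to 0.22). Cebpb was called without shScram Pre replicate 1 (adjusted p = 9.64e-05), in a fit that called 45.7% of all genes, and likewise without replicate 2 (adjusted p = 9.36e-05). After GC correction, under which 33.3% of all genes were called, the difference in Cebpb was 0.19 (adjusted p = 0.627), with corrected values of 404 and 373 TPM for shScram against 439 and 445 TPM for shFto. The corrected libraries of the lines still did not overlap for Cebpb. For Cebpa the correction turned the difference to -0.049 (adjusted p = 0.833).

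**Figure D3:**
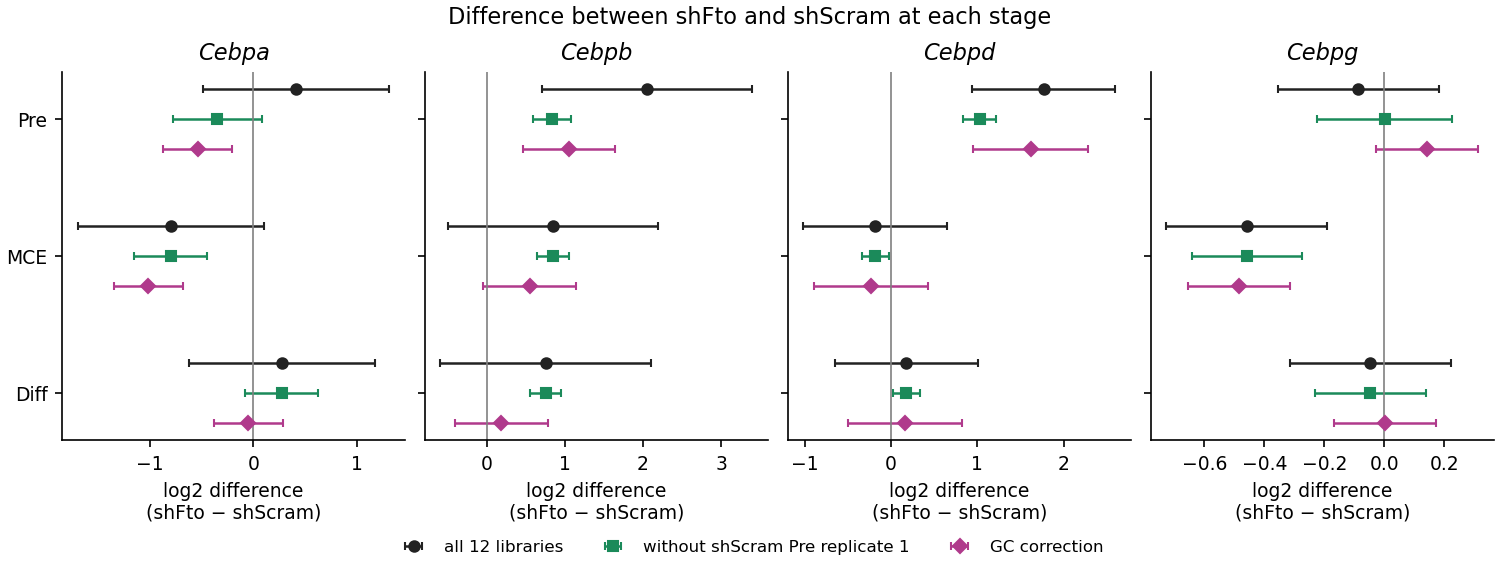
Log2 difference between shFto and shScram (x axis, with its own range for each gene) at Pre, MCE and Diff, as limma estimates with 95% intervals, from all 12 libraries (black), without shScram Pre replicate 1 (green) and after GC correction (magenta). The intervals of Cebpb narrow without that library, its value falls with GC correction from 0.85 to 0.55 at MCE and from 0.75 to 0.19 at Diff, and Cebpg is below 0 at MCE in all 3.

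Averaged over the 3 stages, Cebpb was higher in shFto by 1.22 on the log2 scale (two-sided exact test permuting the lines within stages, p = 0.00926, the smallest that such a test of these libraries can give). The average was 0.81 without shScram Pre replicate 1 (exact permutation p = 0.00926) and 0.60 after GC correction (exact permutation p = 0.00926), both chosen after seeing the data. Cebpd averaged 0.59 (exact permutation p = 0.185), Cebpg -0.20 (exact permutation p = 0.0556) and Cebpa -0.04 (exact permutation p = 0.954). For Cebpa the average was -0.53 after GC correction (exact permutation p = 0.0185). These permutation p-values are not adjusted for the number of genes or settings.

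Tmem189, which shares exon with Cebpb, was itself higher in shFto at Pre (59.9 and 66.8 TPM against 16.7 and 32.3 TPM, log2 difference 1.40, adjusted p = 0.00507). At MCE it stood at 68.9 and 66.9 TPM against 39.1 and 41.0 TPM in shScram (0.75, adjusted p = 0.0657). At Diff it stood at 47.7 and 50.7 TPM against 39.3 and 36.9 TPM (0.36, adjusted p = 0.336). Its level was below that of Cebpb in every library. Spidr, which shares exon with Cebpd, stood at 15.1 to 56.5 TPM and was not called between the lines at any stage. In shScram Pre it stood at 21.5 and 17.1 TPM beside 5.97 and 18.5 TPM of Cebpd. In shFto Pre it stood at 15.1 and 16.3 TPM beside 37.0 and 40.3 TPM of Cebpd. Gm45091, antisense to Cebpa, was called higher in shFto at Diff, at 1.75 and 2.43 TPM against 0.280 and 0.666 TPM (1.07, adjusted p = 0.0314), the stage at which Cebpa was also higher in shFto before GC correction. Of the 3 transcripts that overlap Cebpg, which reached 4.06 TPM at most, Gm44836 was called lower in shFto at Pre (-1.38, adjusted p = 0.0274) and none was called at MCE or Diff. The part of shared reads in these values was not tested.

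From Pre to MCE in shScram cells, 3 of the 4 members rose, where 12.2% of all genes were called higher and 39.1% in either direction. Cebpd rose most (log2 difference 3.82, standard error 0.37, adjusted p = 9.34e-05), a ratio of means of 13.4, followed by Cebpb (3.00, standard error 0.59, adjusted p = 0.00466) with a ratio of 5.85 and Cebpa (1.83, standard error 0.40, adjusted p = 0.00715) with a ratio of 4.45. The ratios without shScram Pre replicate 1 were 8.87, 3.45 and 2.48, and all 3 calls stood (48.1% of all genes called), as they did without any other library and after GC correction (44.5% called). Cebpg gave -0.11 (adjusted p = 0.468), and its sign turned with median-ratio scaling (0.11, adjusted p = 0.538) and with GC correction, under which it was called higher (0.32, adjusted p = 0.00789).

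From Pre to MCE in shFto cells, Cebpd rose by 1.87 (standard error 0.37, adjusted p = 0.00501) and Cebpg fell by 0.49 on the log2 scale (adjusted p = 0.0144), where 8.8% of all genes were called higher, 19.9% lower and 28.7% in either direction. Cebpb gave 1.80 (adjusted p = 0.0504), a ratio of means of 3.48, and Cebpa 0.62 (adjusted p = 0.292). In the fit without shScram Pre replicate 1, which called 51.1% of all genes, both were called (adjusted p = 1.43e-07 and 0.00824), as they were after GC correction with 39.6% called. The median of all genes was itself -0.18 in this comparison and -0.17 in shScram. Median-ratio scaling brought these medians to 0.0022 and 0.0035 and the genes called higher and lower in shScram from 1942 and 4294 to 3200 and 2830. With that scaling Cebpg in shFto was at -0.25 and not called (adjusted p = 0.184), and its call was also lost without shFto Pre replicate 2 or either shFto MCE library (adjusted p = 0.0809 to 0.107).

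From MCE to Diff in shScram cells, none of the 4 members was called by limma, where 25.2% of all genes were called. No member had an unadjusted p under 0.05, beside 6068 of the 15968 genes tested. Cebpb gave -0.96 (adjusted p = 0.272) and Cebpa -0.58 (adjusted p = 0.32), both with no overlap between the stages. Both were called lower without shScram Pre replicate 1 (adjusted p = 2.27e-05 and 0.0117), in a fit that called 52% of all genes, and after GC correction with 33.7% called. In shFto cells Cebpg rose by 0.52 from MCE to Diff (adjusted p = 0.0117), where 20.2% of all genes were called higher and 26.7% in either direction. Median-ratio scaling reduced this to 0.31 (adjusted p = 0.102), and the call was lost without any 1 of the 4 libraries compared (adjusted p = 0.0684 to 0.0783). Cebpb gave -1.05 (adjusted p = 0.231) and Cebpa 0.49 (adjusted p = 0.412), and without shScram Pre replicate 1 Cebpb was called lower (adjusted p = 1.04e-05) and Cebpa higher (adjusted p = 0.0252), and so was Cebpd (0.29, adjusted p = 0.00592), where 50.9% of all genes were called. The GC correction called Cebpb lower too, and 40.7% of all genes.

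Over the whole course from Pre to Diff, Cebpd rose in both lines, by 3.75 in shScram (adjusted p = 0.000116) and by 2.16 in shFto (adjusted p = 0.00366). Cebpb (2.05, adjusted p = 0.0322) and Cebpa (1.25, adjusted p = 0.0459) were also called in shScram, where 13.9% of all genes were called higher and 27.1% in either direction. In shFto, where 9.84% of all genes were called higher and 18.3% in either direction, they gave 0.74 (adjusted p = 0.448) and 1.11 (adjusted p = 0.0886). The shScram values without shScram Pre replicate 1 were 0.82 for Cebpb (adjusted p = 0.000241) and 0.48 for Cebpa (adjusted p = 0.0752), with 37.3% of all genes called in shScram and 42.8% in shFto. The call of Cebpa was lost without any 1 library other than shScram Pre replicate 2 (adjusted p = 0.0706 to 0.213), and that of Cebpb without any of the 10 libraries outside shScram Pre (adjusted p = 0.0527 to 0.151). The GC correction called 38.1% of all genes in shScram and 32.4% in shFto over this course, with 3 and 2 members called higher.

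The methods of the study used another rule for its own calls, an unadjusted p under 0.05 with a fold change over 2 or under 0.5. Applied here to the limma values, that rule called Cebpb and Cebpd at Pre between the lines and no member at MCE or Diff, where it called 15%, 9.01% and 11% of all genes. In shScram it called 3 members from Pre to MCE, 0 from MCE to Diff and 3 from Pre to Diff, with 19.7%, 12.1% and 14.4% of all genes. In shFto it called 2, 0 and 2 members, with 16%, 13.9% and 9.59% of all genes.

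**Figure D4:**
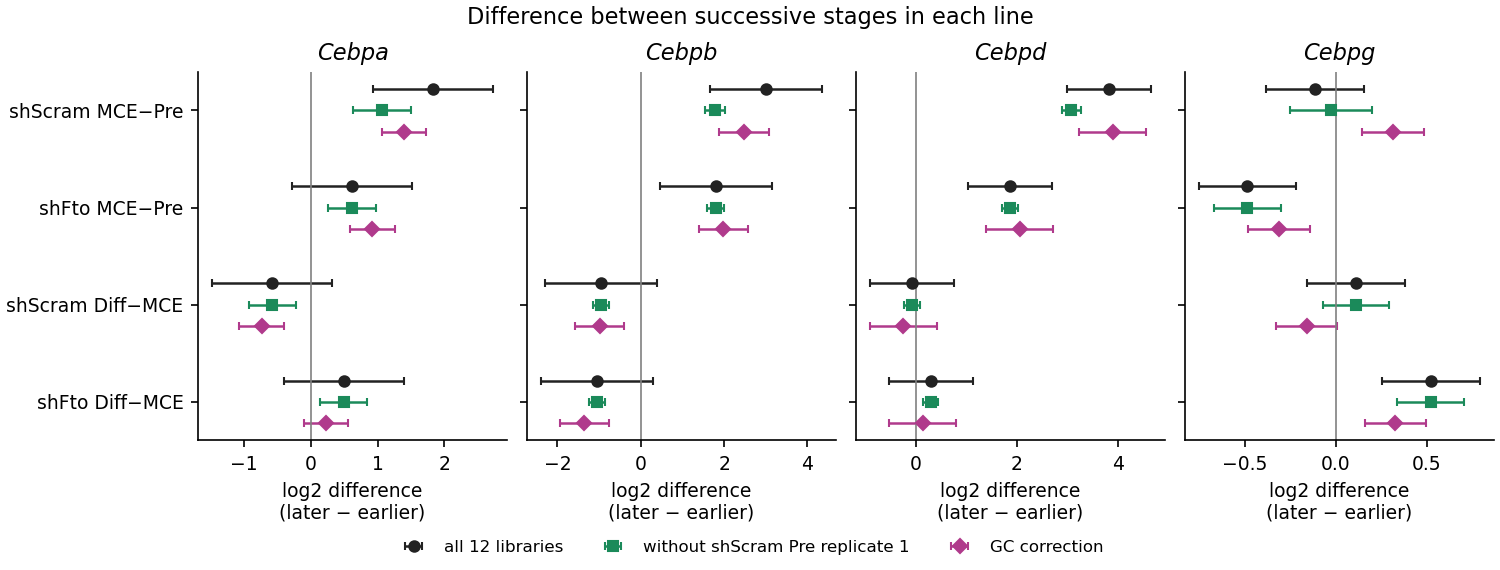
Log2 difference between successive stages (x axis, later minus earlier, with its own range for each gene) in shScram and shFto cells, as limma estimates with 95% intervals, from all 12 libraries (black), without shScram Pre replicate 1 (green) and after GC correction (magenta). Cebpd and Cebpb lie above 0 from Pre to MCE in both lines, Cebpb lies below 0 from MCE to Diff in both, and Cebpa lies below 0 in shScram but above 0 in shFto from MCE to Diff.

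Whether the lines differed in these stage changes was tested as an interaction, and with all libraries none of the 4 members was called by limma for MCE against Pre, Diff against MCE or Diff against Pre, where 5.11%, 2.49% and 7.67% of all genes were called. At an unadjusted p under 0.05, 1 member passed in each of the 3 comparisons. That threshold passed 3582, 2437 and 3766 of the 15968 genes tested, in the same order, so 1 of 4 members did not stand out. Cebpd rose less from Pre to MCE in shFto than in shScram, by -1.95 (standard error 0.52, adjusted p = 0.0684). This interaction was called without shScram Pre replicate 1 (-1.21, adjusted p = 0.000112, in a fit that called 14.1% of all genes) and after GC correction (-1.85, adjusted p = 0.0221, with 10.8% called). Over 24 alternatives its value ranged from -2.69, without shScram Pre replicate 2, to -1.21, with limma adjusted p of up to 0.292. The opposite courses of Cebpa from MCE to Diff gave an interaction of 1.07 (adjusted p = 0.425, standard error 0.56). It was called without shScram Pre replicate 1 (adjusted p = 0.0105) and after GC correction (adjusted p = 0.0237), where 17.1% and 8.24% of all genes were called. For Cebpg the interaction from MCE to Diff was 0.41 (adjusted p = 0.28), with adjusted p = 0.0376 without that library and 0.0242 after GC correction. From Pre to MCE it was -0.37 (adjusted p = 0.229), with adjusted p = 0.0428 without that library and 0.00579 after GC correction. For Cebpb the interaction from Pre to MCE was -1.21 with all libraries (limma adjusted p = 0.392). It was 0.02 without shScram Pre replicate 1 but -2.43 without replicate 2, so its value depends on which of the 2 is kept. For Diff against Pre, the fits without that library and after GC correction called 17.8% and 15.6% of all genes, and of the 4 members Cebpd in each (-0.85, adjusted p = 0.000736, and -1.46, adjusted p = 0.0441).

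The genes around the C/EBP factors were taken as lists, described by counts and medians. Of 8 dimer partners and related genes, 5 passed the filter on low values, and Cebpe (0.0799 TPM at most as a group mean), Batf and Batf3 did not. Among all genes tested, 28.2%, 17.8% and 21.2% were called in either direction at Pre, MCE and Diff. Between the lines at Pre, 3 of the 5 were called higher in shFto, as were 15.9% of all genes. The list medians were 0.73, 0.46 and 0.62 at Pre, MCE and Diff beside 0.08, 0.05 and 0.03 over all genes tested. Ddit3, which encodes CHOP, a partner that keeps C/EBP proteins off their usual sites, stood at 437.6 ± 15.7 TPM against 263.8 ± 35.5 TPM in shScram (SD, n = 2 each, log2 difference 0.73, adjusted p = 0.004). Atf3 (1.25, adjusted p = 0.00743) and Atf5 (2.36, adjusted p = 0.0402) were the others, and the Atf5 libraries of shScram Pre varied as widely as their mean (249.3 ± 273 TPM). At MCE none of the 5 was called by limma with all libraries. Of the 5, 0 had an unadjusted p under 0.05, beside 4837 of the 15968 genes tested. At Diff, Ddit3 (0.61, adjusted p = 0.00698) and Atf3 (1.10, adjusted p = 0.0108) were called higher in shFto. Atf4, which pairs with C/EBPγ, gave 0.46 at MCE (adjusted p = 0.439) and 0.62 at Diff (adjusted p = 0.251). Cebpz, which has a C/EBP name but no leucine zipper of this kind, gave -0.13 and -0.46.

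Of 20 regulators of C/EBP expression, phosphorylation or turnover, 10 were called higher in shFto and 2 lower at Pre, 5 higher and 3 lower at MCE, and 3 higher and 3 lower at Diff, with medians of 0.37, 0.25 and 0.12. Over all genes 28.2%, 17.8% and 21.2% were called in either direction at these stages, so the 6 of 20 at Diff lay near the share over all genes. Stat5a, a signal transducer that acts early in adipogenesis, fell from 43.5 ± 0.436 to 22.2 ± 0.946 TPM at MCE (log2 difference -0.94, adjusted p = 0.0194) and from 59.6 ± 2.06 to 31.2 ± 3.804 TPM at Diff (-0.92, adjusted p = 0.0186). Stat3, which responds to IL-6 family cytokines, rose by 0.49 at MCE (adjusted p = 0.0133) and 0.75 at Diff (adjusted p = 0.00129). Cdk2, a kinase that phosphorylates C/EBPβ during clonal expansion, was higher in shFto at MCE (0.79, adjusted p = 0.0126). Trib2, a pseudokinase that brings C/EBPα to degradation, was higher at Diff (0.77, adjusted p = 0.00363), at 41.0 ± 1.80 TPM against 23.7 ± 1.33 TPM.

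Of 18 genes listed as adipocyte targets around the C/EBP factors, 15 passed the filter. At Pre 2 were higher in shFto and 1 lower, with a median of -0.01. At MCE 8 were lower in shFto and 2 higher, and at Diff 11 were lower and 1 higher, with medians of -0.60 and -1.35. Over all genes, 28.2%, 17.8% and 21.2% were called in either direction at Pre, MCE and Diff. Cd36, a fatty acid transporter, fell by 5.71 at Diff on the log2 scale (149.8 ± 2.27 to 1.97 ± 1.04 TPM, adjusted p = 1.34e-06). Cidec (-4.12), Adipoq (-3.72) and Plin1 (-3.47), which encode a lipid droplet protein, the hormone adiponectin and a lipid droplet coat protein, fell with it. Pparg, the partner of Cebpa in the cascade, gave -0.01 at Pre, -1.18 at MCE (adjusted p = 0.000669) and -1.25 at Diff (adjusted p = 0.000386), and Fabp4 -0.04, -2.17 and -2.74. At Diff Pparg and most of the listed adipocyte genes were lower in shFto cells while Cebpa, at 5.77 and 5.19 TPM against 5.01 and 3.77 TPM, was not called (0.28, adjusted p = 0.685) and overlapped between the lines after GC correction.

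Acute phase and cytokine genes, many of which carry sites for C/EBPβ and C/EBPδ, moved the other way. Of 12, 11 passed the filter, and 9 were called higher in shFto at Pre, 8 at MCE and 9 at Diff, with 0, 3 and 2 called lower and medians of 1.14, 1.64 and 1.19, where 28.2%, 17.8% and 21.2% of all genes were called in either direction. Saa3, serum amyloid A3, stood at 30.4 ± 1.79 TPM in shScram Diff and 1784 ± 233 TPM in shFto Diff (5.83, adjusted p = 2.1e-06). Hp, haptoglobin, went from 93.2 ± 2.92 to 1815 ± 30.2 TPM (4.27, adjusted p = 1.11e-06), and Socs3, a brake on cytokine signalling, from 34.1 ± 1.05 to 200.5 ± 4.93 TPM (2.52, adjusted p = 0.00417). Orm1, orosomucoid, fell from 96.6 ± 16.7 to 11.2 ± 1.75 TPM (-3.00, adjusted p = 5.91e-05), so the list did not move as a block. Of 12 amino acid response genes, 3 were called higher in shFto and 3 lower at Pre, 1 was called higher and 1 lower at MCE, and 5 higher and 0 lower at Diff, with medians of 0.51, 0.19 and 0.63. The 2 of 12 at MCE were near the 17.8% of all genes called. Asns, asparagine synthetase (0.63, adjusted p = 0.00208), Cth (0.86, adjusted p = 0.0142) and Slc7a11 (0.64, adjusted p = 0.0211) were among the 5 at Diff, and Psat1 was the gene called lower at MCE (-0.93, adjusted p = 0.000305). Trib3, Ddit3 and Atf3 belong to 2 of these lists.

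**Figure D5:**
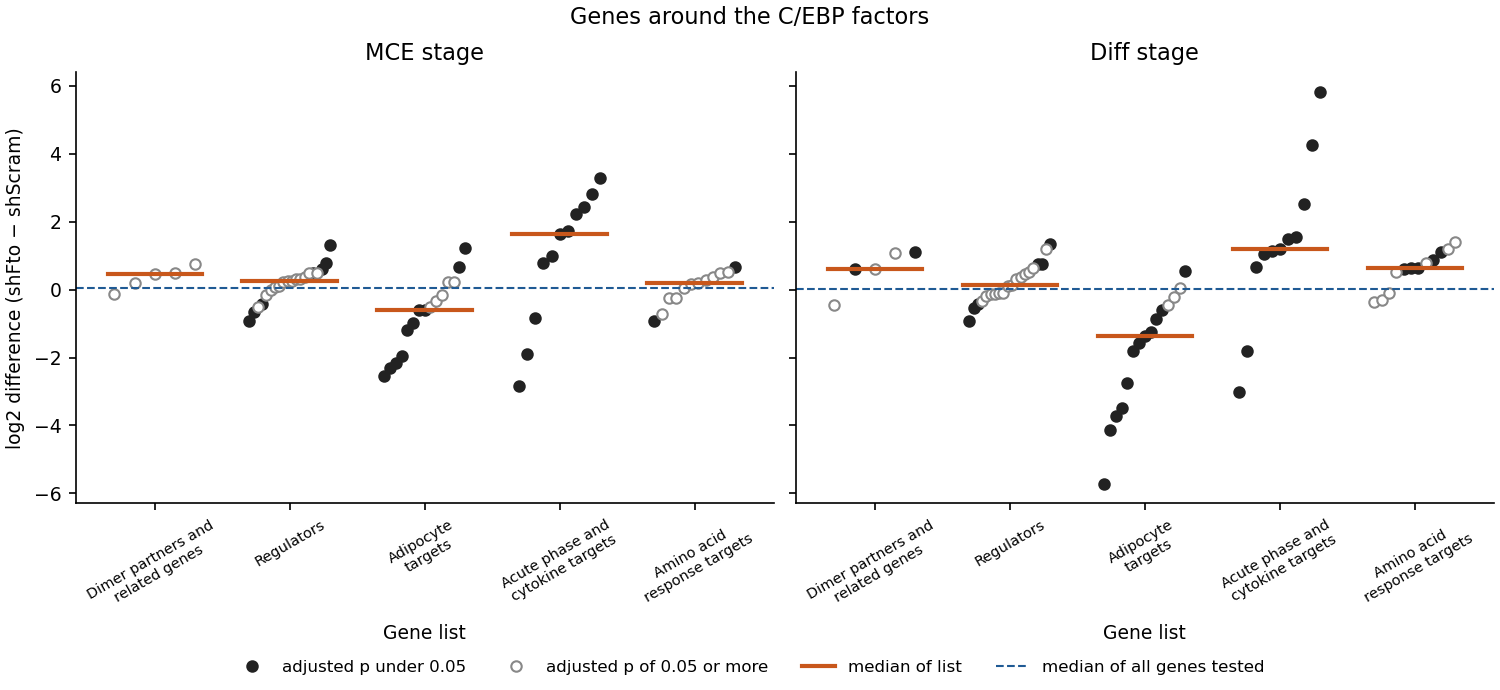
Log2 difference between shFto and shScram at MCE (left) and Diff (right) for each tested gene of 5 lists, ordered within a list by its value, filled where the adjusted p was under 0.05, with the list median (orange) and the median of all genes tested (dashed). Adipocyte targets lie mostly below 0 with medians of -0.60 and -1.35, and acute phase and cytokine targets mostly above 0 with medians of 1.64 and 1.19.

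The same counts without shScram Pre replicate 1, in a fit that called 41% of all genes at MCE and 45.7% at Diff, were 2 higher and 10 lower at MCE and 1 higher and 11 lower at Diff for the adipocyte genes, and 8 higher and 3 lower, then 9 higher and 2 lower, for the acute phase genes. For the regulators they were 8 higher and 4 lower at MCE and 9 higher and 4 lower at Diff. For the amino acid genes they were 6 higher and 4 lower, then 9 higher and 2 lower, and for the partners 3 higher and 0 lower, then 4 higher and 1 lower.

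Markers of other cells were measured beside these results. The 8 adipocyte markers summed to 1394 and 1374 TPM for shScram Diff and 433 and 396 TPM in shFto Diff, and the 10 fibroblast markers to 7080 to 12670 TPM over all libraries. Single fibroblast markers differed between the lines, with 4 called higher in shFto and 2 lower at MCE, and 3 higher and 1 lower at Diff. Over all genes, 17.8% and 21.2% were called in either direction at these stages. Lum (1.84 at MCE and 1.39 at Diff), Col3a1 (1.79 and 1.03) and Thy1 (1.14 and 1.00) were higher at both stages and Vim (-0.64 and -0.93) lower. The 8 macrophage markers summed to 6.75 to 20.0 TPM in shScram and 29.7 to 50.4 TPM in shFto libraries. Cd14 made up most of that sum in shFto (20.5, 48.0 and 40.4 TPM on average at Pre, MCE and Diff), while Adgre1 was listed at 0 in every group and Ptprc and Itgam had group means of at most 0.0365 and 0.0249 TPM. The part of these markers' cells or of Cd14 in the results was not tested. The 5 endothelial and 4 epithelial markers summed to at most 1.24 and 1.12 TPM in any library.

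Over the 12 libraries, the correlation of log2(TPM + 1) between Cebpa and Cebpd was r = 0.897, between Cebpb and Cebpd 0.856, between Cebpa and Cebpb 0.769, and between Cebpb and Cebpg -0.672. These are descriptions over libraries that share groups, stages and the library that stood apart. The values without shScram Pre replicate 1 were 0.777, 0.671, 0.399 and -0.742, so the pairing of Cebpa with Cebpb rested largely on that library. Among 10800 genes compared, those most like Cebpb over the 12 libraries were Rhod (r = 0.989), Gm5617 (0.984) and Trappc6a (0.983). Those most like Cebpd were Tsku (0.987), Col18a1 (0.984) and Ptges (0.983), and without shScram Pre replicate 1 Tsku came behind Lcn2 and Ednra. Cebpa was most like Prrx2 (0.971), Map3k14 (0.965) and Ifitm2 (0.952), of which Map3k14 led without that library. Among those most like Cebpg were Kidins220 (0.949) and Gm12854 (0.947), of which Gm12854 led without it. For Cebpb the leading genes changed to Sdc1 (0.986), Pdxp (0.986) and Spry3 (0.985).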

How the data were processed

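The authors deposited TPM per gene, which StringTie 2.1.4 computed from the annotation of Ensembl release 102 after alignment by HISAT2 2.1.0 to GRCm38. Their reads had been trimmed by Trim Galore 0.6.5, and DESeq2 1.30.1 served for counts, which were not analysed here. TPM keeps no depth, so the depth of each of the 12 libraries (2 in each of 6 groups, assigned by title) is unknown.

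Here, log2(TPM + 1) was fitted with limma 3.58.1 in R 4.3.3 (a mean for each of 6 groups, eBayes with trend, two-sided, Benjamini-Hochberg adjustment over 15968 genes). GC content came from GENCODE M21 transcripts (99.7% of tested genes), and its trend was removed from each library by lowess. Other steps used Python 3.11.15, numpy 2.4.6, pandas 2.3.3, scipy 1.17.1 and matplotlib 3.10.9. The fit was checked on simulated data with independent noise in each library. At MCE it called 164 of 200 genes changed by 2 on the log2 scale, and 11 unchanged genes. No simulated library stood apart as those of shScram Pre did, so that case was not checked. Named were the 4 members, Fto, overlapping genes, the 3 most correlated genes with a mean TPM of at least 5, all partners, up to 4 called genes of each other list with the largest difference at MCE or Diff and a group mean of at least 5 TPM, and Pparg, Fabp4 and Adipoq. Members and lists were chosen with earlier results of these data known. Alternatives covered pseudocount, filter, scaling, libraries, spread, replicate block, GC content and the study's call rule. Replicate numbers were not treated as pairs. A gene that the rule for named genes picks is not reported here.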

Additional observations from a re-analysis of the deposited data

Results flagged for a closer look

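In 3 cases the libraries of the lines did not overlap at 2 stages and lay in opposite directions. Cebpa was lower in shFto at MCE and higher at Diff, and the difference at Diff exceeded that at MCE by 1.07 on the log2 scale (limma interaction, adjusted p = 0.425). After GC correction its libraries overlapped at Diff (4.73 and 4.07 TPM for shScram, 4.55 and 3.88 TPM for shFto) and the difference there was -0.049. Cebpd was higher in shFto at Pre and lower at MCE, a change of -1.95 (adjusted p = 0.0684). From MCE to Diff the difference in Cebpd turned back by 0.36 (adjusted p = 0.844). None of these 3 interactions was called with all 12 libraries, and each kept its direction when either shScram Pre library was left out.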

How the results depend on the processing

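The differences of Cebpb and Cebpd at Pre kept their direction under every alternative run. They were not called, at 2.06 and 1.77, when no filter on low values was applied (1223 genes called higher and 933 lower of 55487). Nor were they when only the libraries compared were fitted, a fit that called 0 of 15968 genes at Pre. Fitting only those libraries, which gives each comparison its own spread, called Cebpa (-0.80), Cebpb (0.85) and Cebpd (-0.19) at MCE and Cebpb (0.75) at Diff. It called 3657 genes higher and 2256 lower of 15968 at MCE, and 3682 and 2931 at Diff. Weighting libraries by their spread called these differences of Cebpa and Cebpb too, with 4252 genes higher and 2769 lower at MCE and 3979 and 3269 at Diff. GC correction, with or without the replicate block, turned Cebpa at Pre (-0.54) and at Diff (-0.049) and Cebpg at Pre (0.14) and at Diff (0.0031), and called Cebpa at MCE (-1.01). It also turned the interactions of Diff against Pre for Cebpa (0.49) and Cebpg (-0.14). The fold change rule of the study did not call Cebpg at MCE (-0.46). The average of Cebpa over the stages turned at a pseudocount of 0.1 (0.10) and had an exact permutation p of 0.0185 after GC correction (-0.53), and that of Cebpg one of 0.037 with median-ratio scaling (-0.25), neither adjusted for multiple tests.

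In shScram, Cebpg from Pre to MCE turned with median-ratio scaling (0.11), quantile normalization (0.015) and GC correction (0.32, with or without the block). From MCE to Diff it turned under the same settings (-0.16, -0.032 and -0.16), and from Pre to Diff with GC correction (0.15). Counts of members called moved as well. From Pre to MCE the higher members numbered 0 in shScram when only the libraries compared were fitted, a fit that called 198 of 15968 genes higher. In shFto they numbered 3 in such a fit, with array weights and with GC correction, where 2478, 2636 and 3263 genes were called higher. They numbered 2 with median-ratio scaling, quantile normalization or the study's rule, and the lower ones 0 under those last 3 settings. Median-ratio scaling called 2263 genes higher and 2250 lower, and quantile normalization 2011 and 2022. From MCE to Diff, 2 members were lower in shScram and 1 in shFto when only the libraries compared were fitted, with array weights and with GC correction. In that order, these settings called 1623, 1921 and 2659 genes lower in shScram and 2884, 2973 and 3350 in shFto. The higher members of shFto numbered 3 with only the libraries compared or with array weights, where 5800 and 6312 genes were called higher. They numbered 0 with median-ratio scaling, where 2459 genes were called higher, or the study's rule. From Pre to Diff, the higher members of shScram numbered 1 with no filter (1781 of 55487 genes called higher) and 0 with only the libraries compared (272 of 15968). Those of shFto numbered 3 with only the libraries compared or array weights, where 2799 and 3147 genes were called higher. They numbered 2 with GC correction, where 2497 genes were called higher, or the study's rule.

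With each library left out in turn, the difference at Pre ranged from -0.35 to 1.18 for Cebpa, 0.83 to 3.28 for Cebpb, 1.03 to 2.51 for Cebpd and -0.18 to 0.0012 for Cebpg. At MCE it ranged from -0.89 to -0.70 for Cebpa, 0.81 to 0.89 for Cebpb, -0.20 to -0.17 for Cebpd and -0.54 to -0.38 for Cebpg. At Diff it ranged from 0.11 to 0.44 for Cebpa, 0.62 to 0.89 for Cebpb and 0.12 to 0.24 for Cebpd. The interactions of Cebpb ranged from -2.43 to 0.016 (MCE against Pre) and -0.23 to 0.037 (Diff against MCE), and those of Diff against Pre from -0.90 to 0.62 for Cebpa and -0.048 to 0.13 for Cebpg. Cebpg from Pre to Diff ranged from -0.092 to 0.085 in shScram and -0.042 to 0.12 in shFto. The number of members called between stages also moved with the library left out, and so did the number called among all 15968 genes. A sample left alone in its group was assumed to vary like the other groups.

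The replicate numbers were not treated as pairing the samples. Of 15 pairs of groups, 2 had deviations that correlated over 0.1, the limit set here, which cannot show whether the samples were paired. With the replicate block, genes called between the lines at MCE numbered 1451 higher and 982 lower, against 1679 and 1159 without it, and no difference of a member between the lines changed its call. Of the stage differences of members, the block ended the call of Cebpa from Pre to Diff in shScram (1.25, adjusted p = 0.0612 by limma) and changed no other. A filter at a mean TPM of 5 left Cebpa untested. Depth is unknown, and 2 libraries in each group limit every value here. The alternatives for the average over stages were chosen after seeing the data.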
